A study of Homo sapiens with 32 samples.

Results

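Described here are 10 members of the network in which the transcription factor MYC and G1 cyclins drive cells from G1 into S phase. They are MYC, its partner MAX, the MYC antagonist MXI1, the D-type cyclins CCND1, CCND2 and CCND3, and their kinases CDK4 and CDK6. The others are the kinases' substrate RB1 and the inhibitor CDKN1B. All 10 were chosen by name for their roles. All of them are among the 35238 genes listed and among the 17011 genes that passed the filter on low values. Transcripts were measured in bulk by RNA sequencing of 4 established lines of human endometrial cancer: Ishikawa, labelled CTNNB1-wildtype, and Ishikawa-S33Y, SNGM and HEC265, each labelled CTNNB1-mutated. CTNNB1 encodes beta-catenin, the transcriptional effector of Wnt signalling, and the labels do not say how the Ishikawa-S33Y line was made or whether it is a clone. Each line was kept for 24 h in 1 of 4 conditions, with 2 libraries per condition: vehicle (0.1% DMSO), paclitaxel, the CDC-like kinase (CLK) inhibitor SM08502, or both drugs together. Each drug was given at the dose that the submitters had found to inhibit viability by 50% in that line. For Ishikawa these were 11 nM paclitaxel and 80 nM SM08502, for Ishikawa-S33Y 6 and 85 nM, for SNGM 11.7 and 350.7 nM, and for HEC265 5.6 and 149 nM. The combination used the same doses. Doses therefore differ between lines, and a difference in response between lines cannot be told apart from a difference in dose.

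MYC binds DNA as a heterodimer with MAX at the E-box sequence CACGTG and raises transcription of genes for growth, while MXI1, a member of the MXD family, competes for MAX and represses through the same sites. D-type cyclins activate CDK4 and CDK6, which phosphorylate RB1 and so release E2F factors that switch on S-phase genes, and CDKN1B (p27) inhibits cyclin-bound kinases. MYC and CCND1 are textbook targets of beta-catenin, CLK enzymes phosphorylate the SR proteins that govern splicing, and paclitaxel stabilises microtubules.

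The E-box is the sequence through which MYC, MAX and MXI1 act, so the members' promoters were searched for it. RefSeq promoter windows (GRCh38.p14, 250 bases before to 50 after the start) were matched for 7 of the 10 members, in 13 windows. MYC, CCND1 and CCND2 were not searched. The only RB1 window (chr13:48476200-48476499) lay within the gene, far from the start of its locus at 48303751. CACGTG, which reads the same on both strands, was found in 2 of the 13 windows, against 7.26% of 35116 windows of the same length genome-wide. The CDK4 window held 3 matches, with first bases 216, 196 and 101 bases before the start. Of all windows, 0.094% held 3 or more. These 250 bases before the CDK4 start are shown because they carry all of its matches (chr12:57752311-57752560, minus strand, E-boxes in capitals).
CDK4: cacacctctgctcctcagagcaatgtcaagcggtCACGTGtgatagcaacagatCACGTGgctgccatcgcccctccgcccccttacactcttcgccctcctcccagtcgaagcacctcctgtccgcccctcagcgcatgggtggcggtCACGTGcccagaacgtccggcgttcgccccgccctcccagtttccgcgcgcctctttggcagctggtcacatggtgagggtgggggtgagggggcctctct
The CDK6 window with a match held 1, at base 31 after the start, shown with its flanks (chr7:92836526-92836555, minus strand, E-box in capitals).
CDK6: cgaggccgcggaCACGTGcggagagccgac
The TCF motif CTTTGAT, or ATCAAAG on the other strand, was in 0 of the 13 windows, which include none of MYC, CCND1 or CCND2, and in 2.62% of all windows. These letters describe the windows only; no binding was measured.

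Depth was 13.03 to 34.13 M reads (1 M is 1000000) in 30 libraries. The other 2 were shallow, Ishikawa-S33Y combination replicate 2 at 2.99 M and SNGM combination replicate 2 at 1.61 M, and results that rest on them are also given without them. Values are CPM, reads per 1000000 counted, which is not scaled by gene length, so levels are compared between samples and never between genes. Differences are on the log2(CPM + 1) scale with their standard error (SE), and a gene was called at a limma adjusted p under 0.05 over all 17011 genes. All 6 epithelial markers tested were above 1 CPM in each line, with summed levels of 948 to 3484 CPM per library. Of the markers of other cell types, COL1A1, a collagen gene, stood out with a mean of 945 CPM over the Ishikawa-S33Y libraries and 88.7 CPM over the Ishikawa libraries. All 6 stromal markers together summed to at most 1166.5 CPM in Ishikawa-S33Y, where the highest single value was 1157.7 CPM. The immune markers summed to at most 52.0 CPM per library, with CD68 highest in each line (means of 4.69 to 25.0 CPM). The endothelial markers summed to at most 11.1 CPM. In bulk RNA, fewer cells of a kind and less RNA per cell cannot be told apart.

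On vehicle, the lines differed in nearly all members. Over the 6 pairs of lines, 53 of 60 member differences were called. The counts were 8 of 10 for Ishikawa-S33Y against Ishikawa (48.3% of all genes tested were called), 10 of 10 for SNGM against Ishikawa (66.8%) and 9 of 10 for HEC265 against Ishikawa (63.3%). Against Ishikawa-S33Y, 9 of 10 were called for SNGM (60.8%) and 9 of 10 for HEC265 (58%), and 8 of 10 were called between HEC265 and SNGM (54.9%). The plot of levels by library shows each of these groups.

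**Figure D1:**
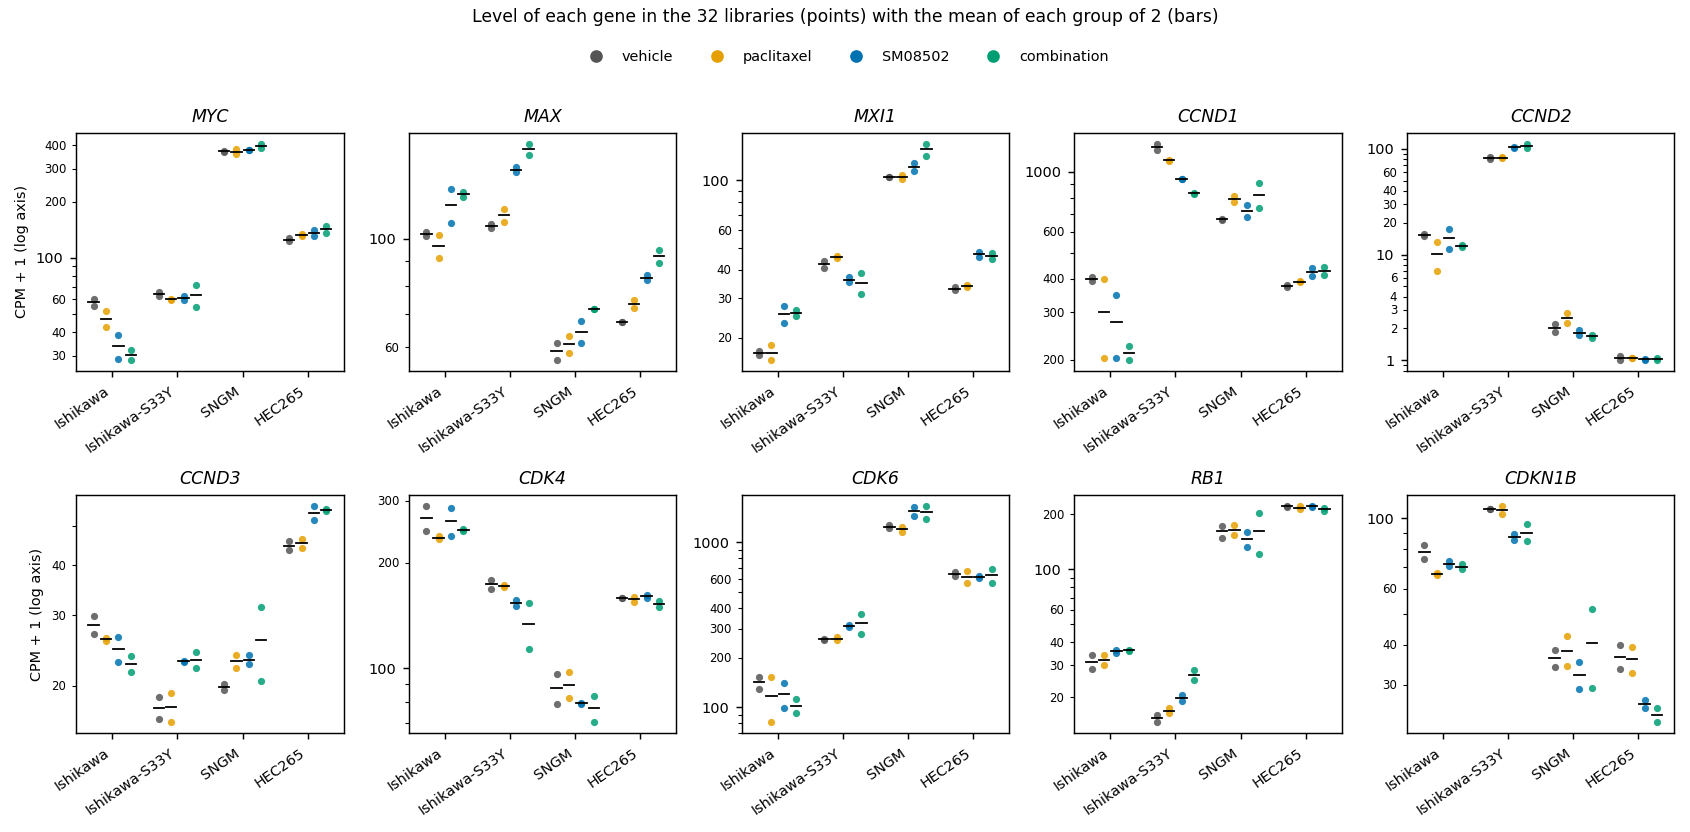
Level of each of the 10 genes as CPM + 1 on a log axis, for the 4 lines, with 1 point per library, colours for the 4 treatments and a bar for the mean of each group of 2. MYC lies above 356 CPM in every SNGM library and under 60 CPM in every Ishikawa library, CCND2 is near 0 in HEC265, and the Ishikawa CCND1 points separate into a pair of levels.

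MYC rose stepwise across the lines. Its vehicle level was 56.7 ± 3.43 CPM (SD, n = 2, as for all vehicle levels here) in Ishikawa, 62.9 ± 1.89 in Ishikawa-S33Y, 124 ± 3.34 in HEC265 and 371 ± 3.41 in SNGM. The first pair of lines did not differ beyond their spread (log2 difference 0.15, SE 0.13, adjusted p = 0.358 by limma), and each further step was called. SNGM stood 6.46-fold above Ishikawa (log2 2.69, SE 0.13, limma adjusted p = 4.22e-14), so that SNGM and HEC265 had more MYC than Ishikawa while no difference was detected for Ishikawa-S33Y.

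MAX, the obligate partner, was lowest in the line with the most MYC, with 57.9 ± 3.45 CPM in SNGM, 66.5 ± 0.0652 in HEC265, 101 ± 1.06 in Ishikawa and 105 ± 1.41 in Ishikawa-S33Y. The step from HEC265 to Ishikawa was called (0.60, SE 0.09), and the neighbours on each side of it were not called. The 0.20 between SNGM and HEC265 (adjusted p = 0.0607) was called by voom, with those lines alone, after median re-centring (0.27) and with the ribosomal protein covariate. MXI1, the MYC antagonist, was lowest in Ishikawa at 16.1 ± 0.401 CPM, followed by HEC265 at 32 ± 0.731, Ishikawa-S33Y at 41.4 ± 2.13 and SNGM at 102.5 ± 0.28. All 3 steps were called, although the 0.36 between HEC265 and Ishikawa-S33Y (SE 0.11) was 0.17 after median re-centring and was not called there or without Ishikawa-S33Y vehicle replicate 2 (0.31 in size). MXI1 was thus 6.06-fold higher in SNGM than in Ishikawa (log2 2.60, SE 0.11), the same pair of lines that lay at the ends of the MYC order.

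Among the D-type cyclins, CCND1 was highest in Ishikawa-S33Y. Its vehicle level was 375 ± 4.13 CPM in HEC265, 399 ± 10.1 in Ishikawa, 665 ± 3.16 in SNGM and 1243 ± 45.1 in Ishikawa-S33Y. HEC265 and Ishikawa did not differ beyond their spread (log2 -0.09, SE 0.22, adjusted p = 0.744), although HEC265 was called lower with the ribosomal protein covariate (-0.99), and Ishikawa-S33Y was 3.11-fold above Ishikawa (log2 1.64, SE 0.22, limma adjusted p = 3.22e-06). The step from Ishikawa to SNGM, 0.73 (SE 0.22), depended on the model. With the level of ribosomal protein genes as a covariate it was -0.18 with a limma adjusted p of 0.392. The adjusted p ran from 0.000131 to 0.392 over all alternatives. The slope of this covariate is estimated from differences within groups and applied across lines.

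CCND2 had the widest range of the members between lines. It was at 80.5 ± 2.6 CPM in Ishikawa-S33Y, 14.2 ± 0.421 in Ishikawa and 1.03 ± 0.24 in SNGM. In HEC265 on vehicle it had 2 reads in 1 library and 0 in the other, where a count of 0 allows up to 0.116 CPM. Against those 2 reads, the summed CPM ratio was 1951 for Ishikawa-S33Y (95% Clopper-Pearson interval 540 to 16119), 344 for Ishikawa (94.6 to 2850) and 25.1 for SNGM (6.69 to 212), intervals that cover counting error only. Ishikawa-S33Y exceeded Ishikawa by 5.37-fold (log2 2.42, SE 0.21, limma adjusted p = 1.07e-08). CCND3 was at 16.6 ± 1.58 CPM in Ishikawa-S33Y, 18.8 ± 0.494 in SNGM, 27.4 ± 2.11 in Ishikawa and 43.7 ± 1.58 in HEC265. The lowest pair of these lines did not differ beyond their spread, and the next 2 steps were called. HEC265, with next to no CCND2 reads, had the highest CCND3 level of the 4 lines, and Ishikawa-S33Y, with the highest CCND2, had the lowest mean CCND3. The other lines did not follow such an inverse order. SNGM was at 1.03 CPM of CCND2 and 18.8 CPM of CCND3, and Ishikawa had more of both genes than SNGM.

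The kinases were ordered inversely to each other at their ends. CDK4 was at 86.7 ± 12.1 CPM in SNGM, 158 ± 0.416 in HEC265, 172.5 ± 7.41 in Ishikawa-S33Y and 267 ± 31.5 in Ishikawa. CDK6 was at 141 ± 16.7 CPM in Ishikawa, 257.5 ± 2.92 in Ishikawa-S33Y, 644 ± 24.8 in HEC265 and 1244 ± 41.2 in SNGM. HEC265 and Ishikawa-S33Y did not differ in CDK4 beyond their spread (log2 -0.13, SE 0.13), although HEC265 was called lower after quantile normalization (-0.39), and each other step in the CDK4 and CDK6 orders was called. From Ishikawa to SNGM, CDK6 was 8.8-fold higher (log2 3.14, SE 0.21) and CDK4 3.06-fold lower (log2 -1.61, SE 0.13).

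RB1, the substrate of these kinases, was at 14.3 ± 1.06 CPM in Ishikawa-S33Y, 30.4 ± 3.86 in Ishikawa, 159.8 ± 16.6 in SNGM and 219.5 ± 2.25 in HEC265. HEC265 exceeded Ishikawa-S33Y by 14.4-fold (log2 3.85, SE 0.16). The step from SNGM to HEC265 (0.46, SE 0.16) was not called without SNGM vehicle replicate 2, HEC265 vehicle replicate 1 or HEC265 vehicle replicate 2 (0.35 to 0.47). CDKN1B was at 35.3 ± 3.12 CPM in SNGM, 35.7 ± 4.4 in HEC265, 77.1 ± 5.6 in Ishikawa and 106 ± 0.259 in Ishikawa-S33Y. SNGM and HEC265 did not differ beyond their spread (log2 0.01, SE 0.18), and HEC265 was 2.13-fold below Ishikawa. The step from Ishikawa to Ishikawa-S33Y (0.45, SE 0.18) was not called without any 1 of the 4 libraries it compares (0.38 to 0.53) or with a replicate block (0.43).

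SM08502 changed few members. Of 40 member-by-line tests against vehicle, 5 rose and 1 fell, and 11 had an unadjusted p under 0.05. In Ishikawa 1 of 10 rose and 1 fell, where 15.2% of all genes tested were called, 6.5% higher and 8.68% lower. In Ishikawa-S33Y 2 of 10 rose, against 29.1% of all genes called, 18.5% higher and 10.6% lower. In SNGM 0 of 10 were called, against 7.86%, 3.8% higher and 4.06% lower, and in HEC265 2 of 10 rose, against 14.7%, 9.27% higher and 5.39% lower. The members' share was thus near that of all genes in each line. In SNGM, 0 of 10 members had an unadjusted p under 0.05, voom on recovered reads also called 0 of them, and 19.9% of all genes had such a p. With both drugs, 15 of 40 were called, 9 higher and 6 lower. In Ishikawa 2 of 10 rose and 2 fell, against 22.8% of all genes called, 11.6% higher and 11.2% lower. Ishikawa-S33Y had 3 higher and 3 lower, against 42%, 24% higher and 18% lower. SNGM had 2 higher, against 18.4%, 10.8% higher and 7.54% lower, and HEC265 had 2 higher and 1 lower, against 19.5%, 12.4% higher and 7.16% lower. The comparisons with SM08502 and with the combination share their vehicle libraries. Samples of a group may be technical repeats, since cells were only said to be plated in duplicate, so p-values measure the spread between these samples. Statements below that groups of 2 libraries did not overlap are descriptive only, since the share of all genes that do so was not counted. With paclitaxel, where no member was called, every member except CDK6 also failed to overlap with vehicle in some line. Among them were MYC in Ishikawa, Ishikawa-S33Y and HEC265, CCND1 in Ishikawa-S33Y, SNGM and HEC265, and MAX in Ishikawa-S33Y and HEC265. Absence of overlap was thus common where nothing was called.

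**Figure D2:**
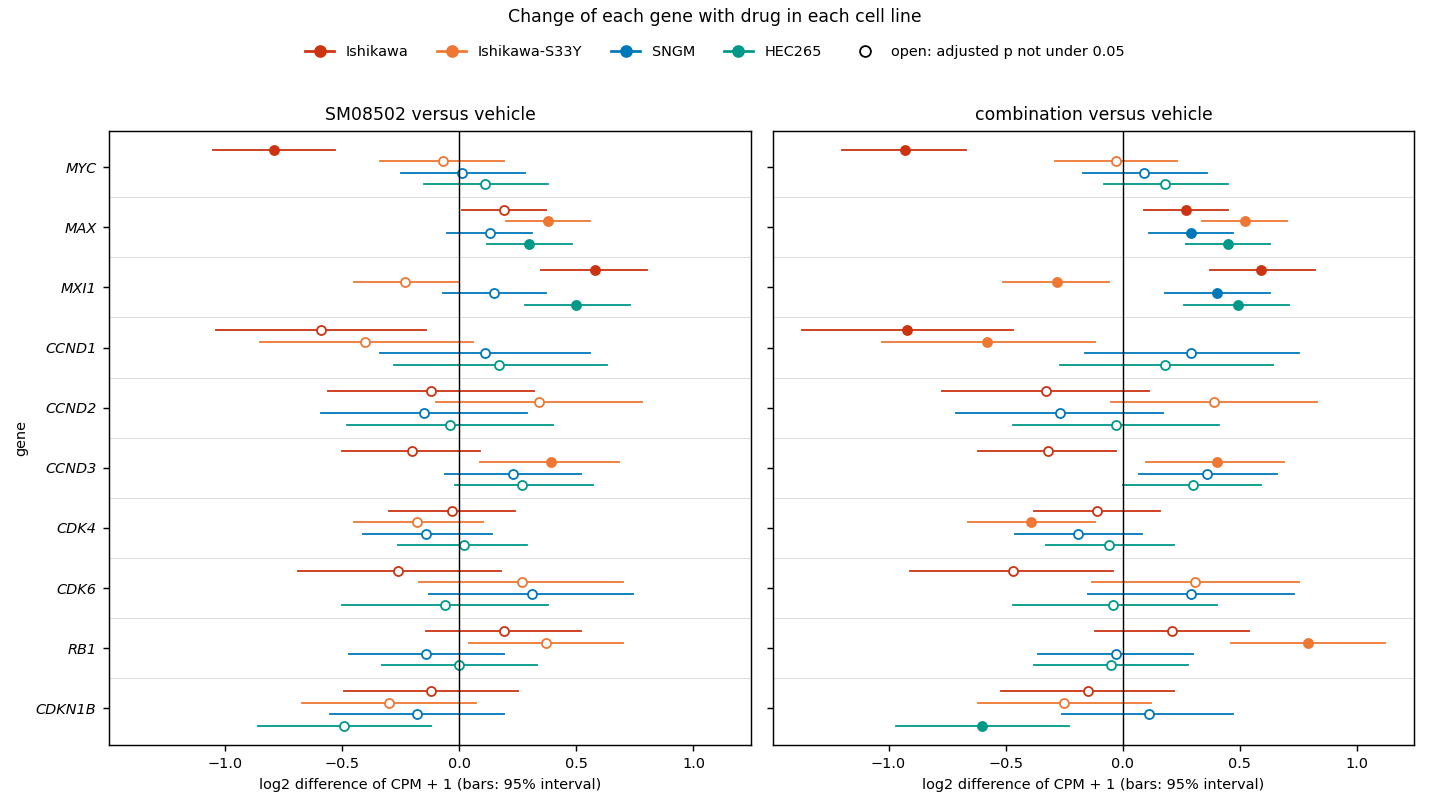
Difference from vehicle on the log2(CPM + 1) scale with its 95% interval (x axis) for the 10 genes (y axis) in each line, for SM08502 (left) and the combination (right), with filled points for called differences. MYC lies left of 0 in Ishikawa and near 0 in the other lines, and MAX lies right of 0 for SM08502 and the combination in every line.

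MYC was called in Ishikawa alone among the lines, where it fell. In Ishikawa it was at 54.3 and 59.1 CPM on vehicle, 37.5 and 27.9 on SM08502, and 31.2 and 27.3 on the combination. All 4 treated libraries lay below both vehicle libraries. The fall with SM08502 was -0.79 on the log2 scale (SE 0.13, 95% interval -1.05 to -0.53, limma adjusted p = 0.000288), or 1.73-fold, and 1.91-fold with the combination (-0.93, SE 0.13, limma adjusted p = 3.74e-05). With the Ishikawa libraries fitted alone, the SM08502 value was the same and its limma adjusted p was 0.0964 (range over alternatives 1.18e-05 to 0.0964), while the combination was called under all alternatives run.

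In the other lines MYC was not called. In Ishikawa-S33Y it was at 64.3 and 61.6 CPM on vehicle, 58.3 and 61.2 on SM08502 and 53.7 and 70.5 on the combination, and the combination libraries lay on both sides of vehicle. In SNGM the values were 374 and 369 on vehicle, 375 and 375 on SM08502 and 408 and 384 on the combination. In HEC265 they were 126.5 and 122 on vehicle, 129.7 and 139 on SM08502 and 135 and 147 on the combination. The 95% intervals of the SM08502 difference were -0.34 to 0.19 in Ishikawa-S33Y, -0.25 to 0.28 in SNGM and -0.15 to 0.38 in HEC265, none of which reaches the fall seen in Ishikawa. In HEC265 the combination value, 0.18 (SE 0.13), was called with that line alone and with the ribosomal protein covariate (0.25).

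MAX was the member that rose in most comparisons. With SM08502 it rose in Ishikawa-S33Y, from 106 and 104 CPM to 139 and 136 (0.38, SE 0.09, limma adjusted p = 0.00243), and in HEC265, from 66.5 and 66.4 to 81.3 and 83.2 (0.30, SE 0.09, limma adjusted p = 0.0215). Treated and vehicle libraries did not overlap in either line. With the combination it was called in all 4 lines, with no combination library below a vehicle library of its line. Ishikawa went from 102 and 100.5 CPM to 124 and 121, SNGM from 60.3 and 55.4 to 70.8 and 70.9, Ishikawa-S33Y to 147 and 155.5 and HEC265 to 88.3 and 93.8. The differences were 0.27 for Ishikawa, 0.29 for SNGM, 0.52 for Ishikawa-S33Y and 0.45 for HEC265 (SE 0.09 each). The HEC265 call for SM08502 was lost without any 1 of its 4 libraries (0.29 to 0.32), by median re-centring (0.21) and by quantile normalization (0.25). The combination call was lost in Ishikawa without any 1 of its 4 libraries (0.25 to 0.29), and in SNGM without vehicle replicate 2 (0.23), without the shallow combination replicate 2 (0.29), by median re-centring (0.29) and by quantile normalization (0.23). With Ishikawa or SNGM fitted alone the combination call was also lost.

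MXI1 rose in some lines and was lower in Ishikawa-S33Y. In Ishikawa it went from 15.8 and 16.4 CPM on vehicle to 26.8 and 22.3 on SM08502 and 24.1 and 25.5 on the combination. In HEC265 it went from 31.5 and 32.5 to 44.6 and 47.1 on SM08502 and 43.8 and 46.7 on the combination. Treated and vehicle libraries did not overlap in either line. The SM08502 rises were 1.49-fold in Ishikawa (0.58, SE 0.11, limma adjusted p = 0.00105) and 1.42-fold in HEC265 (0.50, SE 0.11, limma adjusted p = 0.0027), and the combination gave 0.59 and 0.49 in the same lines. The HEC265 calls held under all alternatives run, and the Ishikawa calls were lost only with that line fitted alone (limma adjusted p = 0.122 for SM08502, in a range over alternatives of 5.49e-05 to 0.122).

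MXI1 in SNGM was at 103 and 102 CPM on vehicle, 119 and 109 on SM08502 and 128 and 144 on the combination. Only the combination was called there (0.40, SE 0.11), and it was not called without vehicle replicate 1, vehicle replicate 2 or the shallow combination replicate 2 (0.41, 0.40 and 0.32), or with SNGM alone. In Ishikawa-S33Y, MXI1 was at 39.9 and 42.9 CPM on vehicle, 36.3 and 34.2 on SM08502 and 37.6 and 30.4 on the combination. With SM08502 it was at -0.23 (SE 0.11), called only after quantile normalization (-0.32). It fell with the combination by 0.28 (SE 0.11). That call rested on the shallow library: without combination replicate 2 the value was -0.14 and not called, and it was also not called without vehicle replicate 1 (-0.33), without vehicle replicate 2 (-0.23) or by voom (-0.21).

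CCND1 fell with the combination in both Ishikawa lines. In Ishikawa-S33Y it was at 1275 and 1211 CPM on vehicle, 943 and 942 on SM08502, and 830.3 and 835 on the combination. The vehicle libraries were highest, the paclitaxel libraries followed at 1112 and 1099.8, and the combination libraries were lowest, with no overlap between groups. The difference was -0.58 with the combination (SE 0.22, limma adjusted p = 0.0384), a 1.49-fold fall, and -0.40 with SM08502 (SE 0.22, limma adjusted p = 0.184). The combination call was lost without any 1 of the 4 libraries it compares (-0.61 to -0.54), without a filter and after quantile normalization (-0.43), while with that line fitted alone the SM08502 value was called too (limma adjusted p = 0.000748).

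In Ishikawa, CCND1 was at 392 and 406 CPM on vehicle, 400.3 and 202 on paclitaxel, 348 and 201 on SM08502 and 223 and 198 on the combination. The paclitaxel and SM08502 pairs each held 1 library near the vehicle level and 1 near the combination level. The combination difference was 1.89-fold (-0.92, SE 0.22, limma adjusted p = 0.00469), and it was not called without combination replicate 2 (-0.83) or with Ishikawa alone. SM08502 gave -0.59 (SE 0.22, adjusted p = 0.071), which became -0.98 and was called without SM08502 replicate 1, and it was called with a replicate block (-0.59), after median re-centring (-0.52) and with the ribosomal protein covariate (-0.37). In SNGM and HEC265, CCND1 with SM08502 or the combination differed from vehicle by 0.11 to 0.29, none called, although both HEC265 values were called with HEC265 alone and the SNGM combination with the covariate (0.38).

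The split of the Ishikawa libraries moved with the level of ribosomal protein genes, taken as the mean log2(CPM + 1) of 77 such genes. This score was 9.07 and 8.83 on vehicle, 8.65 and 9.35 on paclitaxel, 8.88 and 9.41 on SM08502 and 9.22 and 9.29 on the combination. Replicate 2 of paclitaxel and replicate 2 of SM08502 had the highest scores and the low values of CCND1. CCND2 in Ishikawa was likewise at 5.99 CPM in paclitaxel replicate 2 against 12.1 in replicate 1, and CDK6 at 80 against 152. With the score as a covariate the combination difference of CCND1 in Ishikawa was -0.58 and still called. In each of the 4 pairs of Ishikawa libraries, the one with the higher score also had less MYC: 54.3 against 59.1 CPM on vehicle, 41.5 against 51.2 on paclitaxel, 27.9 against 37.5 on SM08502 and 27.3 against 31.2 on the combination. SM08502 replicate 1, with a score between the vehicle scores, had less MYC than both vehicle libraries. The other SM08502 library and both combination libraries scored above both vehicle libraries, so score and treatment largely went together. With the covariate the SM08502 and combination differences of MYC were -0.68 and -0.76, both called. Whether the score accounts for part of the MYC fall was not tested.

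**Figure D3:**
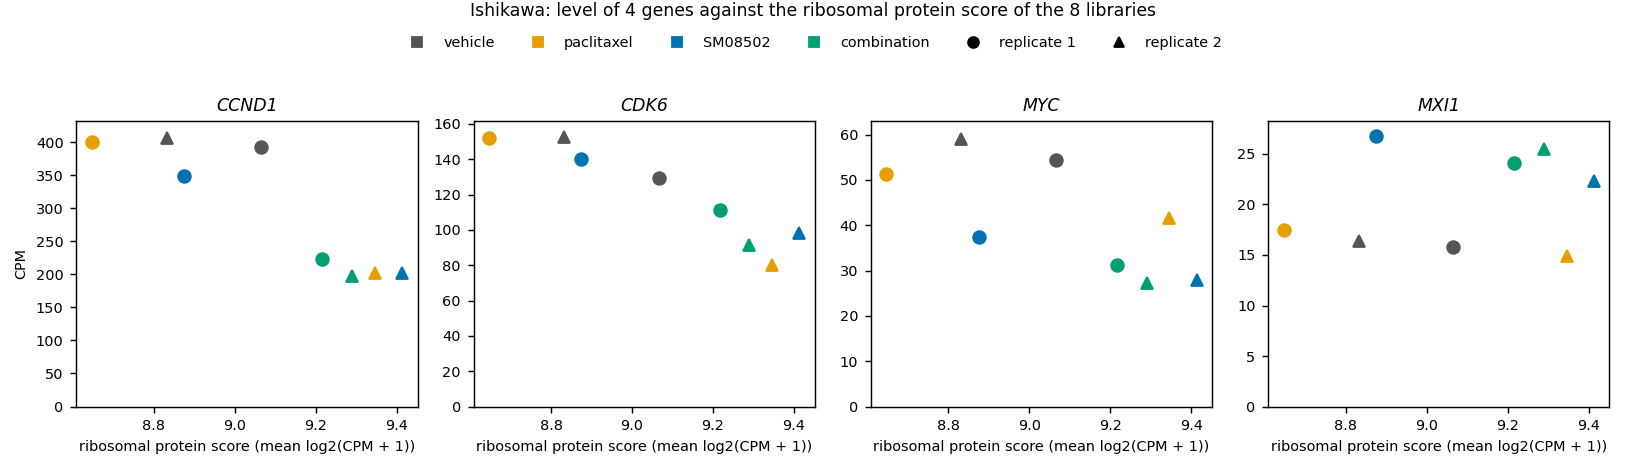
CPM of MYC, MXI1, CCND1 and CDK6 (y axis, from 0) against the ribosomal protein score (x axis, mean log2(CPM + 1) of 77 genes) in the 8 Ishikawa libraries, 1 point per library coloured by treatment. CCND1 and CDK6 are low in the libraries with scores above 9.2, and in all SM08502 and combination libraries MYC is lower and MXI1 higher than in the vehicle and paclitaxel libraries.

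The other cyclins changed little with the drugs. CCND3 in Ishikawa-S33Y was at 17.7 and 15.5 CPM on vehicle, 21.9 and 22.1 on SM08502 and 23.3 and 21.1 on the combination, with no overlap. The rises were 0.39 and 0.40 (SE 0.14 each, limma adjusted p = 0.0437 and 0.0291). The SM08502 call was lost without any 1 of its 4 libraries (0.30 to 0.48), without a filter, and after median re-centring or quantile normalization, and the combination call without vehicle replicate 2 (0.30), without combination replicate 1 (0.33) or after median re-centring (0.39). In SNGM, CCND3 was at 19.2 and 18.5 CPM on vehicle and 19.6 and 30.5 on the combination, the last from the shallow library. In HEC265, CCND3 was at 42.6 and 44.8 CPM on vehicle, 50.7 and 55.2 on SM08502 and 53.6 and 54.2 on the combination, without overlap, at 0.27 and 0.30 (SE 0.14 each), called with that line alone and, for the combination, by voom. CCND2 was not called in any drug comparison. It ranged from 78.7 to 111 CPM over the 8 Ishikawa-S33Y libraries, where it was at 78.7 and 82.4 on vehicle and 102 and 103 on SM08502, and those rises (0.34 with SM08502 and 0.39 with the combination, SE 0.21 each) were called with that line alone and with the ribosomal protein covariate (0.43 and 0.54). In SNGM CCND2 stayed between 0.622 and 1.79 CPM, and in HEC265 it had at most 2 reads in any library.

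Of the kinases, only CDK4 was called, and only in Ishikawa-S33Y with the combination. CDK4 there was at 178 and 167 CPM on vehicle, 156 and 149 on SM08502 and 153 and 112 on the combination. Both treated groups lay below vehicle, and only the combination was called (-0.39, SE 0.13, limma adjusted p = 0.0199). The low value came from the shallow library: without combination replicate 2 the difference was -0.17 and not called, nor was it called without vehicle replicate 1 (-0.35) or vehicle replicate 2 (-0.44). Elsewhere CDK4, whose searched promoter window held 3 E-boxes, differed from vehicle by -0.19 to 0.02 with either treatment, none called. In Ishikawa, where MYC fell, CDK4 was at 289 and 245 CPM on vehicle and 238 and 286 on SM08502 (95% interval of the log2 difference -0.30 to 0.24). Whether MYC acts on CDK4 in these lines was not tested. CDK6 was called in 0 of 8 comparisons with SM08502 or the combination. In Ishikawa CDK6 was at 129 and 153 CPM on vehicle, 140 and 98.4 on SM08502 and 111 and 91.4 on the combination. The combination libraries there lay below vehicle. In Ishikawa-S33Y it was at 259.6 and 255 CPM on vehicle, 304.5 and 316 on SM08502 and 279 and 366 on the combination, differences of 0.27 and 0.31 (SE 0.21 each) that were called with the covariate (0.36 and 0.47), and the second also with that line alone. In SNGM its combination value of 0.29 was called with the covariate only (0.37).

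RB1 rose in Ishikawa-S33Y, the line in which it was lowest. It was at 15.1 and 13.6 CPM on vehicle, 15.4 and 16.4 on paclitaxel, 19.5 and 18.2 on SM08502 and 23.9 and 27.1 on the combination. The 4 groups did not overlap. The combination difference was 1.73-fold (0.79, SE 0.16, limma adjusted p = 0.000457) and was called under all alternatives run, with adjusted p from 2.17e-05 to 0.0096, and SM08502 alone gave 0.37 (SE 0.16, adjusted p = 0.0837), which was called with that line alone and after quantile normalization (0.36). In HEC265, where RB1 was highest, it stayed between 207 and 221 CPM in all 8 libraries. In SNGM the combination libraries stood apart at 120.5 and 202 CPM, the higher from the shallow library.

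CDKN1B was lower after treatment in HEC265. It was at 38.8 and 32.6 CPM on vehicle, 25.9 and 24.3 on SM08502 and 24.4 and 21.8 on the combination. Treated and vehicle libraries did not overlap. The combination was called (1.52-fold, -0.60, SE 0.18, limma adjusted p = 0.0191), but not without vehicle replicate 1 (-0.48) or combination replicate 2 (-0.52), and SM08502 was at -0.49 (SE 0.18, adjusted p = 0.0721), which was called by voom (-0.50), with the covariate (-0.51) and with HEC265 alone. In Ishikawa-S33Y it was at 106.1 and 105.7 CPM on vehicle, 87.9 and 84.1 on SM08502 and 83.6 and 94.6 on the combination, also without overlap, at -0.30 and -0.25 (SE 0.18 each), each called only with that line alone. In SNGM it was at 37.6 and 33.1 CPM on vehicle and 28.3 and 51.0 on the combination, and without combination replicate 1 the SNGM combination value, then resting on the shallow library, was 0.52 and called.

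Taking the equal-weight mean of the 4 within-line differences, 4 of 10 members were called for SM08502, 2 higher and 2 lower (38.5% of all genes tested were called, 22.6% higher and 15.8% lower), and 7 of 10 for the combination, 4 higher and 3 lower (49.1%, 29% higher and 20.1% lower). MAX rose by 0.25 with SM08502 and 0.38 with the combination (SE 0.04 each), and MXI1 by 0.25 and 0.30 (SE 0.05 each). Both genes kept these calls under all alternatives run. The other called means were MYC at -0.18 and -0.17, CDKN1B at -0.27 and -0.22, and for the combination CCND3 at 0.18, CDK4 at -0.19 and RB1 at 0.23. Each of these 7 values lost its call when 1 library was left out, in 2 to 10 of the 16 cases, and without the 2 shallow libraries RB1 came to 0.11, CDK4 to -0.10 and CCND3 to 0.12, none called. MYC for the combination was -0.08 and not called with the ribosomal protein covariate.

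Paclitaxel alone called 0 of 40 member differences, with 3 at an unadjusted p under 0.05, and voom called 0 as well. Of all genes tested, limma called 0.0118% for Ishikawa, 0% for Ishikawa-S33Y, 0.0176% for SNGM and 0.00588% for HEC265. The 3 were in Ishikawa, with MYC at -0.29 (SE 0.13), CCND1 at -0.49 (SE 0.22) and CCND2 at -0.67 (SE 0.21), and adjusted p of 0.399 to 0.646. Without paclitaxel replicate 1, and so with replicate 2 alone in that arm, CCND1 (-0.98), CCND2 (-1.12) and CDK6 (-0.80) were called; the lone library was assumed to vary like the other groups. Adding paclitaxel to SM08502 also called 0 of 40 (0%, 0.129%, 0.253% and 0.00588% of all genes in Ishikawa, Ishikawa-S33Y, SNGM and HEC265), with 2 at an unadjusted p under 0.05 and 0 by voom. These were RB1 in Ishikawa-S33Y (0.41, SE 0.16, limma adjusted p = 0.275) and MXI1 in SNGM (0.25, SE 0.11, limma adjusted p = 0.251). Without SNGM combination replicate 1, the shallow library alone stood for that arm and 4 members were called there, CCND3 (0.44), CDKN1B (0.70), MXI1 (0.34) and RB1 (0.48).

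The response to SM08502 was then compared between lines, each line at its own dose. Of 60 member differences in response, 5 were called. They were 2 of 10 between Ishikawa-S33Y and Ishikawa (2.43% of all genes were called), 1 of 10 between SNGM and Ishikawa (3.66%), 1 of 10 between HEC265 and Ishikawa (2.56%) and 1 of 10 between HEC265 and Ishikawa-S33Y (5.66%). Between SNGM and Ishikawa-S33Y (9.83%) and between HEC265 and SNGM (2.03%), 0 of 10 were called by limma and 0 by voom, with 2 and 1 at an unadjusted p under 0.05. MYC accounted for 3 of the 5: its SM08502 difference was higher than that of Ishikawa by 0.72 for Ishikawa-S33Y, 0.80 for SNGM and 0.90 for HEC265. MXI1 accounted for the rest, with the response of Ishikawa-S33Y 0.80 below that of Ishikawa and that of HEC265 0.73 above that of Ishikawa-S33Y. These 3 MYC comparisons share the Ishikawa libraries. Without Ishikawa SM08502 replicate 2 they were 0.51, 0.60 and 0.70, none called. The MYC comparison with Ishikawa-S33Y was called without Ishikawa SM08502 replicate 1 and not without any other 1 of its 8 libraries (0.51 to 0.78). That with SNGM was also not called without Ishikawa vehicle replicate 2 (0.74), SNGM vehicle replicate 2 (0.79) or either SNGM SM08502 library (0.80 each), and that with HEC265 without HEC265 vehicle replicate 2 (0.88) or SM08502 replicate 2 (0.85). The MXI1 value of -0.80 was not called without Ishikawa-S33Y vehicle replicate 2 (-0.75) or SM08502 replicate 2 (-0.76). It also lost its call under an alternative that left out no single library (limma adjusted p = 0.0918). So did the MYC comparison of SNGM with Ishikawa (limma adjusted p = 0.202).

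The genes around the members were read from 4 lists. Of 10 further genes of the MYC-MAX-MXD network, SM08502 called 1 for Ishikawa, higher, and 3 for Ishikawa-S33Y (2 higher). It called 0 for SNGM and 2 for HEC265, both higher. The shares of all genes called in these lines were 15.2%, 29.1%, 7.86% and 14.7%. The list medians were 0.01, 0.03, 0.13 and -0.04, against 0.00, 0.11, 0.00 and 0.07 over all genes. MYCN, the MYC paralogue of neural tissue, had the largest SM08502 change among these 10 genes. In Ishikawa-S33Y it was at 29.1 and 26.7 CPM on vehicle, 11.4 and 11.5 on SM08502 and 7.24 and 6.35 on the combination. The 3 groups did not overlap. The falls were 1.22 and 1.89 on the log2 scale (differences of -1.22 and -1.89, SE 0.19 each, limma adjusted p = 8.93e-05 and 2.14e-07), the first not called with a pseudocount of 0.1 (-1.28). MYCN in Ishikawa was at 2.03 and 1.54 CPM on vehicle, at most 0.371 CPM in SNGM and at 0 reads in all 8 HEC265 libraries. The MYCN calls in the mean over lines (-0.38 and -0.59) were lost by voom (-0.28 and -0.30). MGA, a MAX-binding repressor, rose with SM08502 by 0.58 in Ishikawa and 0.55 in Ishikawa-S33Y (SE 0.09 each) and was at 0.17 in SNGM and 0.11 in HEC265, not called. The Ishikawa call was lost with that line alone. MLXIP, a glucose-responsive factor of the extended network, was called only in the mean over lines for the combination (-0.39, SE 0.13), and not without SNGM vehicle replicate 2 or combination replicate 2 (-0.31 each), or with the ribosomal protein covariate (-0.19).

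Of 25 further G1 regulators, SM08502 called 4 for Ishikawa (2 higher) and 9 for Ishikawa-S33Y (5 higher). It called 2 for SNGM, both higher, and 5 for HEC265 (3 higher). The medians were -0.10, 0.10, -0.06 and 0.09. Against these counts stood 15.2%, 29.1%, 7.86% and 14.7% of all genes called in the same lines. FBXW7, the ubiquitin ligase subunit that marks MYC and cyclin E proteins for degradation, was the only list gene called higher in all 4 lines with both SM08502 and the combination. The SM08502 rises were 0.47 for Ishikawa, 0.56 for Ishikawa-S33Y, 0.59 for SNGM and 0.38 for HEC265 (SE 0.10 each), from group means of 22.5 to 34.8 CPM on vehicle to 33.6 to 48.5 CPM. With the combination it rose by 0.57, 0.85, 0.83 and 0.45. The SM08502 call was lost in HEC265 without any 1 of the 4 libraries (0.36 to 0.39) by median re-centring (0.28) and by quantile normalization (0.29). The Ishikawa call was lost without vehicle replicate 2 (0.36) or SM08502 replicate 2 (0.39). With the line fitted alone, FBXW7 was not called for SM08502 in Ishikawa or SNGM, nor for the combination in Ishikawa.

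CDKN1A (p21), an inhibitor of cyclin-dependent kinases and a p53 target, rose with SM08502 in SNGM and HEC265. In SNGM it was at 710.4 and 607 CPM on vehicle, 1202 and 1214 on SM08502 and 1194 and 1390.1 on the combination. In HEC265 it was at 429 and 404 on vehicle, 726 and 750.2 on SM08502 and 737 and 692 on the combination. Treated and vehicle libraries did not overlap in either line. The SM08502 rises were 0.88 and 0.82 (SE 0.13 each, limma adjusted p = 0.000129 and 0.000128), called under all alternatives run, and the Ishikawa and Ishikawa-S33Y values were -0.18 and 0.13, not called. CDK7, the kinase that activates other cyclin-dependent kinases, rose with the combination by 0.61 in the mean over lines (SE 0.10). Within lines the CDK7 combination value was called in Ishikawa-S33Y (0.77), Ishikawa (0.59) and SNGM (0.67). It was not called in Ishikawa-S33Y without the shallow combination replicate 2 (0.54), in Ishikawa without any 1 of its 4 libraries (0.53 to 0.66), or in SNGM without vehicle replicate 2 (0.54) or the shallow combination replicate 2 (0.24). The Ishikawa and SNGM calls of CDK7 were also lost by median re-centring (0.65 and 0.67) and with the line alone, the first with the ribosomal protein covariate (0.43) and without a filter, and the second by voom (0.37) and by quantile normalization (0.62).

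**Figure D4:**
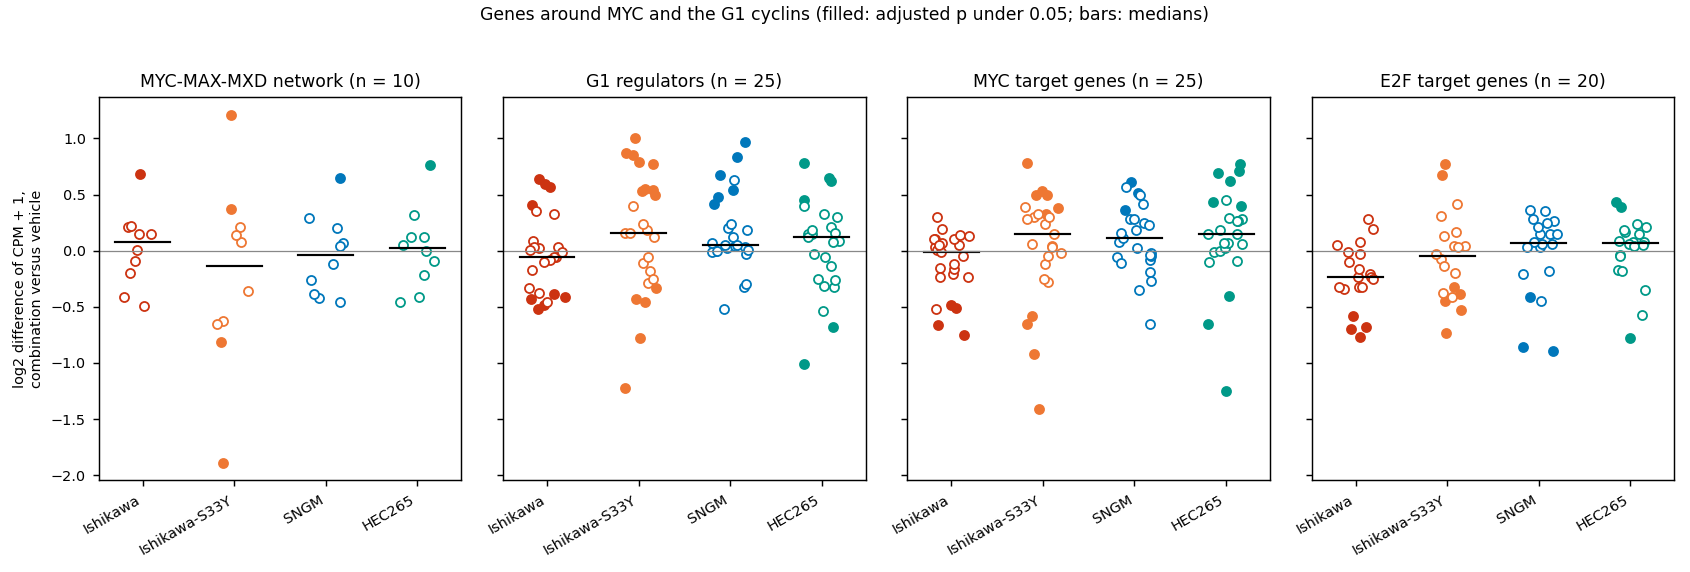
Log2 difference from vehicle (y axis) between the combination and vehicle of each gene of the 4 lists in the 4 lines (x axis), 1 point per gene, filled where called, with a bar at each list's median. The medians of the lists lie between -0.23 and 0.16, with called genes on both sides of 0.

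Of 25 textbook MYC target genes, SM08502 called 2 in Ishikawa, both lower, 9 in Ishikawa-S33Y (6 higher), 1 in SNGM, lower, and 6 in HEC265 (4 higher). The medians, lines in the same order, were -0.03, 0.21, 0.00 and 0.09. Of all genes tested, 15.2%, 29.1%, 7.86% and 14.7% were called in these lines. In Ishikawa, the line where MYC fell, the 2 lower of 25 stand against 8.68% of all genes called lower, a share near the background, and the median of all genes was 0.00. SHMT2, a mitochondrial enzyme of serine and one-carbon metabolism, fell with SM08502 in all 4 lines, with differences of -0.45 for Ishikawa, -0.30 for Ishikawa-S33Y, -0.42 for SNGM and -0.51 for HEC265 (SE 0.10 each). Its group means, in that order, went from 294, 249, 77.5 and 272 CPM to 214, 202, 57.4 and 191 CPM. Its call was lost in Ishikawa-S33Y without any 1 of 4 libraries (-0.33 to -0.27) and in SNGM without vehicle replicate 1 (-0.29) or SM08502 replicate 1 (-0.39), and in Ishikawa and SNGM with the line fitted alone. The combination call of SHMT2 in Ishikawa was lost that way too. RRP12, needed for ribosome assembly, fell most in HEC265, from a mean of 36.1 ± 0.47 CPM to 11.6 ± 0.649 CPM (n = 2 each, -1.56, SE 0.26, limma adjusted p = 0.000308). LDHA, lactate dehydrogenase, fell in Ishikawa-S33Y from 1306 and 1378 CPM to 771 and 642 on SM08502 and 489 and 517 on the combination (-0.93 and -1.41, SE 0.14 each), with no overlap, called under all alternatives run.

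Of 20 textbook E2F target genes, which act downstream of RB1, SM08502 called 3 in Ishikawa and 3 in SNGM, all lower, 5 in Ishikawa-S33Y (3 lower) and 4 in HEC265 (3 higher). The medians for Ishikawa, Ishikawa-S33Y, SNGM and HEC265 were -0.20, -0.03, 0.00 and 0.19. In that order, 15.2%, 29.1%, 7.86% and 14.7% of all genes were called. Those called lower were 8.68% in Ishikawa, 10.6% in Ishikawa-S33Y and 4.06% in SNGM, and 9.27% were called higher in HEC265. RRM2, a ribonucleotide reductase subunit, fell with differences of -0.64 for Ishikawa, -0.41 for Ishikawa-S33Y and -0.95 for SNGM (SE 0.15 each) and was at -0.05 in HEC265. The RRM2 call was lost in Ishikawa without vehicle replicate 1 (-0.57) and in Ishikawa-S33Y without any 1 of its 4 libraries (-0.41 each), without a filter, with a pseudocount of 0.1, with the replicate block and by median re-centring (-0.46). With the line fitted alone, RRM2 was not called in Ishikawa or SNGM. CCNA2, cyclin A2, was called in SNGM only (-0.96, SE 0.24), and not there without vehicle replicate 1 (-0.81) or SM08502 replicate 1 (-0.68), or with SNGM alone.

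The genes whose pattern was most like that of MYC, by Pearson's r over the 16 group means of log2(CPM + 1) among 10422 genes of moderate or higher level, were PAQR5 (0.994), TTLL4 (0.993) and UBASH3B (0.99). PAQR5 is a membrane progesterone receptor, TTLL4 modifies tubulin, and UBASH3B is a tyrosine phosphatase. Like MYC, all 3 had the order Ishikawa, Ishikawa-S33Y, HEC265 and SNGM on vehicle. UBASH3B went from 33.4 ± 1.47 CPM in Ishikawa to 518 ± 38.9 CPM in SNGM (n = 2 each). For CCND1 they were CRYBG3 (0.959), MIA3 (0.957) and TIMP2 (0.957). TIMP2, a metalloproteinase inhibitor, was at 129.5 ± 18.4 CPM in Ishikawa and 566 ± 11.5 CPM in Ishikawa-S33Y on vehicle. The 16 means come from 4 lines, so these correlations mostly describe differences between lines.

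Reads of 7 of the 10 members may include reads of other genes, since their RefSeq loci overlap another gene and the strand of counting is not given in the sources used here. The overlapping genes include TSPAN31 at CDK4 (chromosome 12, 57747727 to 57752310), FNTB, CHURC1-FNTB and MAX-AS1 at MAX (chromosome 14, 65006101 to 65102695), CCND2-AS1 at CCND2 (chromosome 12, 4273762 to 4305353), CDK6-AS1 at CDK6 (chromosome 7, 92604921 to 92836573) and LPAR6 within RB1 (chromosome 13, 48303751 to 48481890). CCND1 (chromosome 11, 69641156 to 69654474), CDKN1B (chromosome 12, 12717368 to 12722369) and MYC (chromosome 8) overlapped no other listed gene. Positions are those of GRCh38.p14. CCND2, CCND3 and CDK4 also have named pseudogenes with which reads could be shared.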

How the data were processed

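Total RNA of 32 libraries (4 lines, 4 treatments, 2 replicates) was depleted of ribosomal RNA and sequenced on a NovaSeq6000, per the labels' protocols, with 350 ng of RNA for Ishikawa and 500 ng for the other lines. The authors deposited log10(CPM + 1) for each gene. Turned back into CPM, every library summed to 1000000, and whole reads were recovered for 100% of values within 0.01 of a whole number, which gave the depths. The submitters' processing notes name bcl2fastq, kallisto, STAR and GRCh38 without roles; the annotation is not given in the sources used here. Tables of splicing events were not analysed here.

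The 17011 genes that exceeded 1 CPM in 2 or more libraries were fitted as log2(CPM + 1), pseudocount 1, with limma 3.58.1 in R 4.3.3: 1 mean per group, all 32 samples, empirical Bayes with an intensity trend (16 residual and 4.9 prior degrees of freedom), 30 two-sided contrasts, each adjusted by Benjamini-Hochberg over all genes. Fold changes on this scale understate changes of low genes. Simulated 2-fold changes of 200 genes for SM08502 in HEC265 were recovered in 97% of cases, with 1% false among calls (17158 genes). The simulation gave every gene the same added spread and changed only genes above a minimum level. It does not give the sensitivity for smaller changes or for genes with a wider spread. Groups come from the labels' titles. The members, lists, marker genes and tests were chosen with earlier results of these data known. From each list, genes called in all 4 lines with 1 sign, or with the 2 largest called changes in the mean over lines, are named. 1 such gene is not reported here. The alternatives were no filter, a stricter filter (mean of at least 2), a pseudocount of 0.1, median re-centring, quantile normalization, a replicate block, a ribosomal protein covariate, the compared lines alone, no shallow libraries, each replicate left out and, added after seeing the data, limma voom on recovered reads.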

Additional observations from a re-analysis of the deposited data

Results flagged for a closer look

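The response of MYC to SM08502 differed between lines by a test of the difference itself. Relative to Ishikawa, the response was higher by 0.72 for Ishikawa-S33Y, 0.80 for SNGM and 0.90 for HEC265 (log2 scale, SE 0.18 each, limma adjusted p = 0.0388, 0.0166 and 0.00879). These calls share the Ishikawa libraries. Without Ishikawa SM08502 replicate 2 the values were 0.51, 0.60 and 0.70, none called. Leaving out 1 library at a time, the call was lost for 7 libraries with Ishikawa-S33Y, 5 with SNGM and 3 with HEC265. The SNGM call was also lost under an alternative that left out no single library (limma adjusted p = 0.202).

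The response of MXI1 to SM08502 also differed by such a test. It was lower in Ishikawa-S33Y than in Ishikawa by 0.80 (a difference of -0.80) and higher in HEC265 than in Ishikawa-S33Y by 0.73. The first was not called without Ishikawa-S33Y vehicle replicate 2 (-0.75) or SM08502 replicate 2 (-0.76). It was also not called under an alternative that left out no single library (limma adjusted p = 0.0918). The second was called under all alternatives run.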

How the results depend on the processing

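Of 300 member values, 90 were called, 61 of them under every alternative run, and 28 lost the call under 1 or more. Of the 210 not called, 42 were called under some alternative and 85 changed sign, for which no direction is claimed. CCND1 in SNGM against Ishikawa reversed, from 0.73 to -0.18, with the ribosomal protein covariate (limma adjusted p 0.392, range over alternatives 0.000131 to 0.392). For SM08502 against vehicle in the 4 lines, 6 member calls became 10 with that covariate and 11 with the compared lines alone. For the combination in the mean over lines, 7 became 4 without the 2 shallow libraries. The causes were not tested. Scaling or the covariate moved the median of all genes by over 0.1 between some lines. For HEC265 against Ishikawa on vehicle this median was -0.17. It was 0.04 after median re-centring, 0.10 after quantile normalization and -0.26 with the covariate. Leaving out 1 replicate gave 4 to 7 calls for SM08502 in the 4 lines, 2 to 5 for its mean, 0 to 3 for paclitaxel, 11 to 19 for the combination, 3 to 7 for its mean, 0 to 4 for the combination against SM08502, 51 to 53 between lines on vehicle and 2 to 7 for the SM08502 response between lines. Counts of list genes called moved more, for example 2 to 16 MYC targets for SM08502 in HEC265. The stricter filter and the pseudocount of 0.1 changed no member call.

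With the replicate block the same counts were 7, 4, 0, 15, 8, 0, 52 and 5. It added CCND1 for SM08502 in Ishikawa (limma adjusted p 0.0309) and for the combination in the mean over lines (0.0232), removed CDKN1B in Ishikawa-S33Y against Ishikawa (0.094) and changed no other member call. In the labels, same-numbered samples shared only a number. Replicate differences over 6083 genes were correlated between treatments of a line. The correlation ran from -0.57 to 0.86 in Ishikawa, -0.12 to 0.14 in Ishikawa-S33Y, -0.65 to 0.84 in SNGM and -0.15 to 0.33 in HEC265. For some pairs of treatments in Ishikawa and SNGM it was thus strong, with either sign. The planned quasi-likelihood count test was not run, because the deposited unit is not counts, and voom took its place. For CCND2 in HEC265 a fit with the compared lines alone gave no value for the drug comparisons, since it did not pass the filter there.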
